A study of Homo sapiens with 6 samples.

Results

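The EGR, FOS and JUN genes encode transcription factors of the immediate early class, and 10 of them were examined here in drug-tolerant persisters (DTPs) of the PC9 lung cancer line. The members were EGR1, EGR2, EGR3, FOS, FOSB, FOSL1, FOSL2, JUN, JUNB and JUND, and they were taken as all array probe sets that the array annotation assigned to exactly 1 gene, that gene being one of these. This gave 21 probe sets of 9 genes among 19775 genes measured. EGR2 had no probe set assigned to it alone and was not analysed here.

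The arrays came from 3 DTP samples, which were cells surviving 9 days of 2 µM erlotinib, and from 3 parental samples in DMSO. Erlotinib inhibits the kinase of the EGF receptor (EGFR). All 6 samples were of PC9, an EGFR mutant line of non-small cell lung cancer, stably carrying a GFP vector. By the growth protocol DTPs were collected on day 10 and parental cells on day 3 at 100% confluency, whereas the design text and the methods of the study both have the DMSO and the erlotinib treatment running for 9 days. The sources thus disagree, and drug and time in culture cannot be told apart if the protocol held. Drug, cell density and the selection of surviving cells cannot be told apart under either account.

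Typical immediate early genes are switched on within minutes of growth factor stimulation without new protein synthesis, and their mRNAs are short-lived. In epithelial cells EGFR acts on such genes through RAS, RAF, MEK and ERK. ERK activates ternary complex factors that sit with serum response factor (SRF) on CArG boxes in their promoters. How each member is induced was not measured here. The EGR proteins are zinc finger factors that bind GC-rich sites. FOS and JUN proteins pair through leucine zippers to form AP-1, in which JUN proteins can pair with each other but FOS proteins need a JUN partner.

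The upstream regions of 4 members are shown because their mRNAs were called lower (EGR1, FOS, JUN) or higher (JUNB) in DTPs. FOSL1, also called lower, and EGR3 had no window in the table used. Each is the 250 bases before the annotated start, 5′ to 3′ on the gene's strand, from RefSeq on GRCh38.p14. Capitals mark CArG boxes, the CRE half-site TGACGT on either strand, and the AP-1 variant TGACATCA.
EGR1, chr5:138465229-138465478, plus strand: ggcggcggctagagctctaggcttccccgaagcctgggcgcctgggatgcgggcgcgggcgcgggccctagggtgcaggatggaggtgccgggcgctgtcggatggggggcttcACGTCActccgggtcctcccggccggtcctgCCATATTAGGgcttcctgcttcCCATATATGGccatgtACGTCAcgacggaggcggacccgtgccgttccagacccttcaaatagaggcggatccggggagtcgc
FOS, chr14:75278578-75278827, plus strand: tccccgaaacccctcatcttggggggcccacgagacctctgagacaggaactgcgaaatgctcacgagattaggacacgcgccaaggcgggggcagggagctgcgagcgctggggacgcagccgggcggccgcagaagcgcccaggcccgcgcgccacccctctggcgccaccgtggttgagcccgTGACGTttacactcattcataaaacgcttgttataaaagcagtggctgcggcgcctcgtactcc
JUN, chr1:58784048-58784297, minus strand: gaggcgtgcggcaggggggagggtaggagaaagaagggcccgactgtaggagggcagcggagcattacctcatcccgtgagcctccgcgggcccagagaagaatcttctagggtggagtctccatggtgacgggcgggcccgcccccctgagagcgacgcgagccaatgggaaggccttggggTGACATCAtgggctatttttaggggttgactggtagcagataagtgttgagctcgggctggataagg
JUNB, chr19:12791236-12791485, plus strand: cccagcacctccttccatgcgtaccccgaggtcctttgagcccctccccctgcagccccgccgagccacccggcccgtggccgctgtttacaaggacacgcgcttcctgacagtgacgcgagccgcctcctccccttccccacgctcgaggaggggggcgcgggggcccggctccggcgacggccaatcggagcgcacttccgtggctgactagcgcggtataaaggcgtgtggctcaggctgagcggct

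The window of EGR1 held 2 CArG boxes, at -105 to -96 and at -83 to -74 from the start, a pair of CRE half-sites and 1 EGR site (GCGNGGGCG). A CArG box was present in 1.16% of 35116 upstream windows of all genes, and among the members it was also found in a window of EGR2. Sequence outside the windows was not searched, so FOS and other members without a match may hold a CArG box or other sites there. The CRE half-site, to which CREB and ATF factors can bind, occurred upstream of 6 of the 8 members with a window (EGR1, EGR2, FOS, FOSB, FOSL2 and JUND). EGR2 had several windows, so these 8 members had 10. Of the 10 windows 60.0% held the half-site and 20.0% a CArG box, and 7.1% of all windows held the half-site. The variant TGACATCA was found upstream of JUN, at -67 to -60, and in 2.37% of all windows. The canonical AP-1 site TGACTCA was in no member window and in 4.2% of all windows. The full CRE TGACGTCA was upstream of JUND alone (1.65% of all windows) and GCGNGGGCG upstream of EGR1 alone (8.41%). CCGGAA, a sequence that ETS factors can bind, was upstream of FOSB alone (14.5%). Shorter ETS sequences such as GGAA were not searched, so other members may hold ETS sites. Both strands were searched, CRE half-sites include those within a full CRE, and the half-site and the JUN variant were added after the sequences had been read. Such matches describe letters only, and the half-site was found upstream of members that were called lower as well as of FOSL2 and JUND, which were not called.

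Of the 9 measured members 4 fell in DTPs, 1 rose and 4 were not called. EGR1, FOSL1, FOS and JUN were 26.2-fold, 5.56-fold, 3.09-fold and 2.20-fold lower, and JUNB was 1.52-fold higher (n = 3 arrays each). A gene was called when limma gave an adjusted p under 0.05 and the fold exceeded 1.5. By this rule 6.13% of all genes were called lower and 8.08% higher, 14.2% together. The median log2 fold change of the 9 members was -0.42, against -0.05 over all genes. DTP and parental arrays did not overlap for 7 of the 9 members, which held for 53.7% of all genes. As these are bulk cultures, a smaller number of cells expressing a gene and less of its mRNA per cell cannot be told apart.

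**Figure D1:**
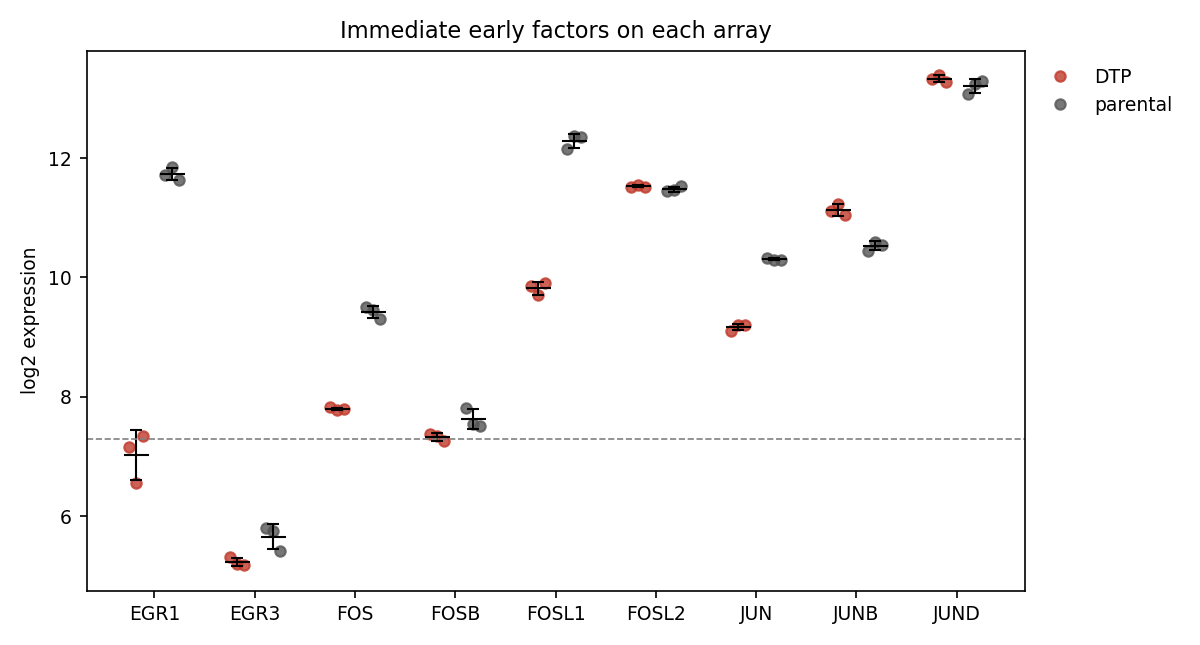
Log2 expression (vertical axis) of the 9 measured members on each DTP array (red) and each parental array (grey), with the mean and SD of 3 arrays in black. The dashed line is the median of all probe sets (7.29), which EGR1 lay close to in DTPs (6.56 to 7.35) and far above in parental cells (11.64 to 11.85).

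EGR1, the founding member of its family, had log2 values of 7.16, 6.56 and 7.35 in DTPs, against 11.71, 11.85 and 11.64 in parental cells. The groups lay more than 4 log2 units apart, and the DTP arrays scattered more (SD 0.42) than the parental arrays (SD 0.11). The log2 fold change was -4.71 ± 0.16 (SE, limma adjusted p = 1.4e-10), the lowest but 1 of all 19775 genes. This probe set, 227404_s_at, was 1 of 3 that read EGR1, and all 3 were called lower, with very different sizes.

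On 201694_s_at EGR1 had 7.05, 7.02 and 6.94 in DTPs, against 9.56, 9.88 and 10.19 in parental cells, a log2 fold change of -2.87 (95% interval -3.15 to -2.59). On 201693_s_at it had 7.01, 7.07 and 6.69 in DTPs, against 7.52, 7.62 and 7.58 in parental cells, a log2 fold change of -0.65 (-0.86 to -0.44). The DTP means of the 3 probe sets were nearly the same (6.92 to 7.02), so the sizes differed mainly in the parental values. In DTPs all 3 were dimmer on average than the median probe set, and the deposited values carry no detection call, so a fold measured there may understate the change. With the mean of the 3 probe sets as its value EGR1 had a log2 fold change of -2.74 and was still called.

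**Figure D2:**
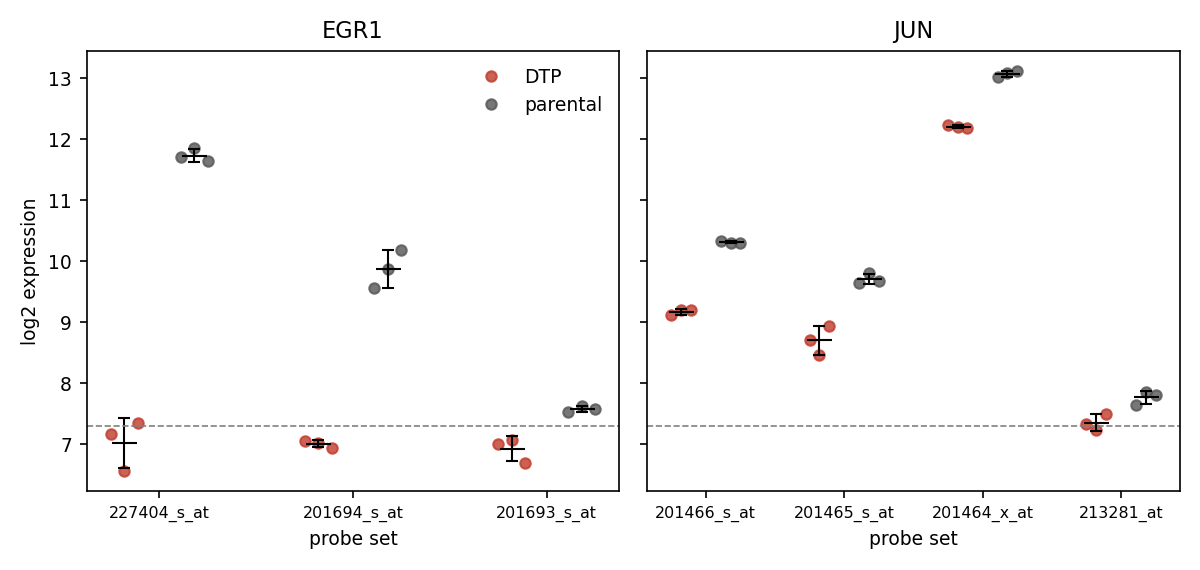
Log2 expression (vertical axis) of EGR1 and JUN on each of their probe sets (horizontal axis) in DTP arrays (red) and parental arrays (grey), with mean and SD in black and the median of all probe sets dashed. The EGR1 probe sets share a DTP level near 7.0 and differ in the parental level, whereas for JUN the 3 brighter probe sets keep a similar distance between groups (-1.14, -1.01 and -0.87).

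EGR3, which shares the zinc fingers of EGR1, had 5.31, 5.20 and 5.18 in DTPs, against 5.80, 5.75 and 5.42 in parental cells. It was the only measured member with both group means below the median of all probe sets. The difference of -0.42 ± 0.10 (SE) had a limma adjusted p of 0.0028 and stayed under the fold minimum. EGR3 had an adjusted p of 0.066 when arrays were centred on spike-in controls and of 0.071 by the methods' t-test. Spike-in centring gave EGR3 and EGR1 the same SE (0.12), so its p-values reflect little of each gene's own spread.

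Among the FOS family, FOSL1 changed most. FOSL1 encodes FRA-1, the AP-1 subunit whose protein is stabilised by ERK, and it had log2 values of 9.85, 9.70 and 9.90 in DTPs, against 12.16, 12.37 and 12.35 in parental cells. The lowest parental array was thus over 2 log2 units above the highest DTP array. The log2 fold change was -2.48 ± 0.08 (SE, 95% interval -2.65 to -2.30, limma adjusted p = 1.3e-10), and 46 of all genes had a lower one.

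FOS, the cellular counterpart of a retroviral oncogene and the best known partner of JUN, had 7.82, 7.78 and 7.79 in DTPs, against 9.50, 9.46 and 9.31 in parental cells. The 3 DTP arrays were almost identical (SD 0.02) and every parental array lay above them. The log2 fold change was -1.63 ± 0.07 (SE, 95% interval -1.78 to -1.47, limma adjusted p = 1.6e-09), an interval that did not overlap that of FOSL1. FOS and FOSL1 were each read by 1 probe set.

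FOSB had 7.37, 7.35 and 7.25 in DTPs, against 7.81, 7.55 and 7.51 in parental cells. The groups did not overlap, but the difference was small (-0.30 ± 0.09 SE, limma adjusted p = 0.013) and under the fold minimum. FOSB no longer passed the adjusted p without parental replicate 1 (0.062) or DTP replicate 3 (0.057), after centring on spike-ins (0.38) or on ribosomal protein genes (0.17), or by the methods' t-test (0.097). The spike-in value again rests on an SE of 0.12 shared with other genes.

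FOSL2, which encodes FRA-2, had 11.52, 11.55 and 11.52 in DTPs, against 11.45, 11.46 and 11.53 in parental cells, and the groups overlapped. The log2 fold change was 0.05 (95% interval -0.09 to 0.19, limma adjusted p = 0.53), so a change of 1.5-fold, 0.58 on this scale, lay outside the interval. Its 5 probe sets gave log2 fold changes between -0.03 and 0.26, and none was called. The probe set 228188_at had the highest of these (0.26, adjusted p = 0.032 over all probe sets), with 9.84, 9.93 and 9.86 in DTPs, against 9.43, 9.68 and 9.72 in parental cells. Within the FOS family the members thus ranged from a called fall of FOSL1 to a FOSL2 interval that included 0.

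The 3 JUN genes differed in direction. JUN, the AP-1 subunit that JNK phosphorylates and that binds its own promoter, had 9.11, 9.20 and 9.20 in DTPs, against 10.33, 10.30 and 10.30 in parental cells. The arrays of each group were close together, and the groups lay about 1 log2 unit apart. JUN had a log2 fold change of -1.14 ± 0.07 (SE, limma adjusted p = 2.1e-08).

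JUN was read by 4 probe sets, of which 3 were called lower. The one not called, 213281_at, had 7.33, 7.23 and 7.50 in DTPs, against 7.65, 7.85 and 7.81 in parental cells, a log2 fold change of -0.42 (adjusted p = 0.0025 over all probe sets) that stayed under the fold minimum. The brightest, 201464_x_at, has probes that may bind other transcripts and gave -0.87. With the mean of the 4 probe sets JUN had a log2 fold change of -0.86 and was still called.

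JUNB, often described as an antagonist of JUN in growth control, had 11.11, 11.24 and 11.04 in DTPs, against 10.45, 10.60 and 10.54 in parental cells. All DTP arrays lay above all parental arrays. The log2 fold change was 0.60 ± 0.07 (SE, 95% interval 0.44 to 0.77, limma adjusted p = 2.5e-05), barely past the fold minimum of 0.58. JUNB fell short of that minimum without DTP replicate 2 (0.55) or parental replicate 1 (0.56), with an adjusted p of 2.0e-04 and 1.7e-04, and over all alternatives its adjusted p was at most 0.007.

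JUND, the JUN protein that is produced more constantly than the other 2, had 13.33, 13.39 and 13.27 in DTPs, against 13.08, 13.25 and 13.30 in parental cells, and the groups overlapped. The log2 fold change was 0.12 (95% interval -0.05 to 0.28, limma adjusted p = 0.23). Its 4 probe sets ranged from -0.15 to 0.15 and none was called. After centring on ribosomal protein genes JUND had 0.25 (limma adjusted p = 0.021) and FOSL2 had 0.19 (limma adjusted p = 0.028), both under the fold minimum.

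**Figure D3:**
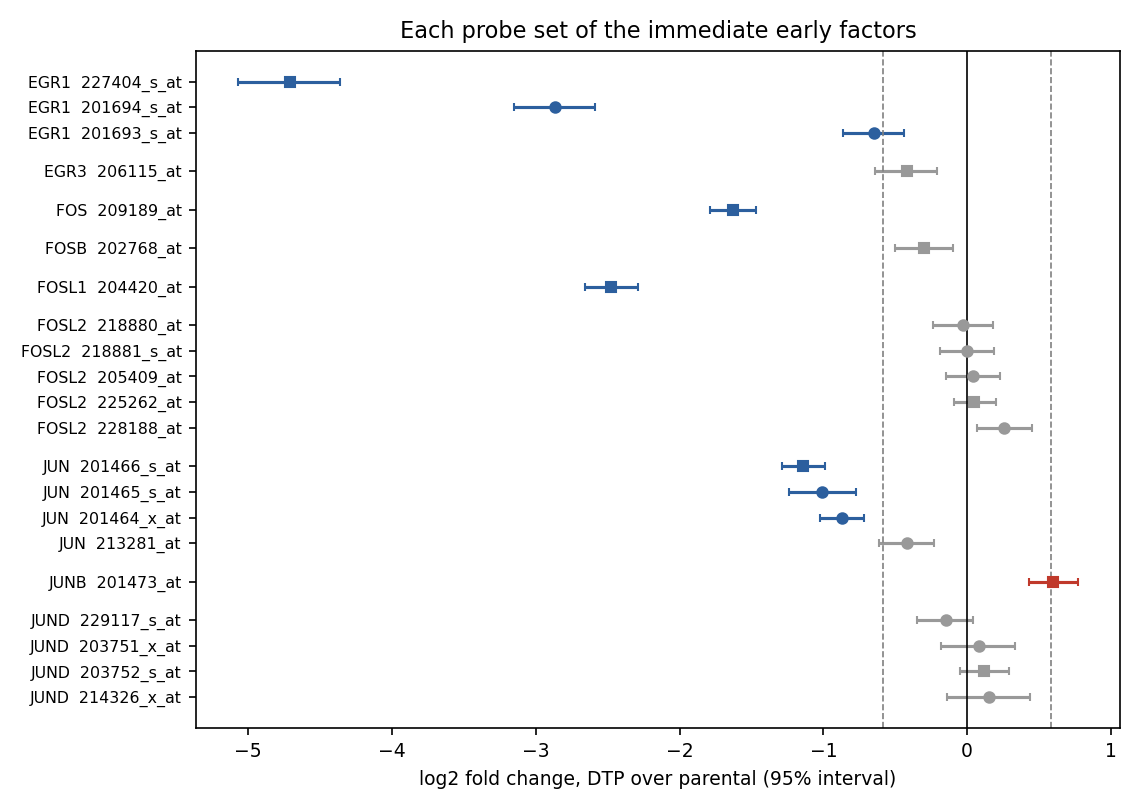
Log2 fold change, DTP over parental (horizontal axis, with limma's 95% interval) for each of the 21 probe sets of the 9 measured members. Squares are the probe sets taken for the genes, blue is called lower, red is called higher, grey is not called, and dashed lines mark a 1.5-fold change. The 8 blue probe sets belong to EGR1, FOS, FOSL1 and JUN and the 1 red probe set to JUNB.

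Over probe sets, 8 of the 21 were called lower and 1 higher, against 4.93% called lower and 7.56% called higher of all 54613 probe sets. A further 4 passed the adjusted p without reaching the fold minimum, namely those of EGR3 and FOSB, 213281_at of JUN and 228188_at of FOSL2. No member had probe sets called in opposite directions.

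Other immediate early genes were set beside these members, from a list that was compiled for this pathway. The list had 34 measured genes, 15 called lower in DTPs and 5 called higher, with a median log2 fold change of -0.30. MAFF, a small MAF bZIP protein, was 7.73-fold lower (9.18, 9.06 and 9.21 in DTPs, against 12.10, 12.11 and 12.09 in parental cells). The EGFR ligand HBEGF was 7.66-fold lower, with 2 of its 4 probe sets called and a log2 fold change of -1.53 with the mean of all 4, against -2.94 for the probe set used. The transcription factor KLF4 was 7.61-fold lower. MAFF, HBEGF and KLF4 each had a limma adjusted p of at most 9.2e-11. The other 12 genes called lower had log2 fold changes from -2.72 to -0.61.

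The 5 immediate early genes called higher were PTGS2, SGK1, TNFAIP3, CCN1 and NFKBIZ. PTGS2, the inducible cyclooxygenase, had 7.99, 8.09 and 7.47 in DTPs, against 4.56, 4.40 and 4.20 in parental cells, a log2 fold change of 3.46 ± 0.14 (SE, limma adjusted p = 7.7e-10). Its parental values were far below the median of all probe sets, so the size of this difference is uncertain. PTGS2 had no value with dim probe sets left out, and it had a log2 fold change of 2.94 with the mean of its 2 probe sets. SGK1, a kinase induced by serum and glucocorticoids, was 5.68-fold higher, and TNFAIP3, an inhibitor of NF-κB signalling, 3.23-fold. CCN1, a secreted matricellular protein, was 1.79-fold higher. NFKBIZ, a nuclear IκB protein, was 1.55-fold higher and was no longer called without DTP replicate 1 (log2 fold change 0.49), with the mean of its probe sets (0.53) or by the methods' t-test (adjusted p = 0.059). SGK1, TNFAIP3, CCN1 and NFKBIZ were picked out after their values had been seen. SRF, NR4A1 and MCL1, likewise picked out afterwards, were among the 14 that were not called.

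**Figure D4:**
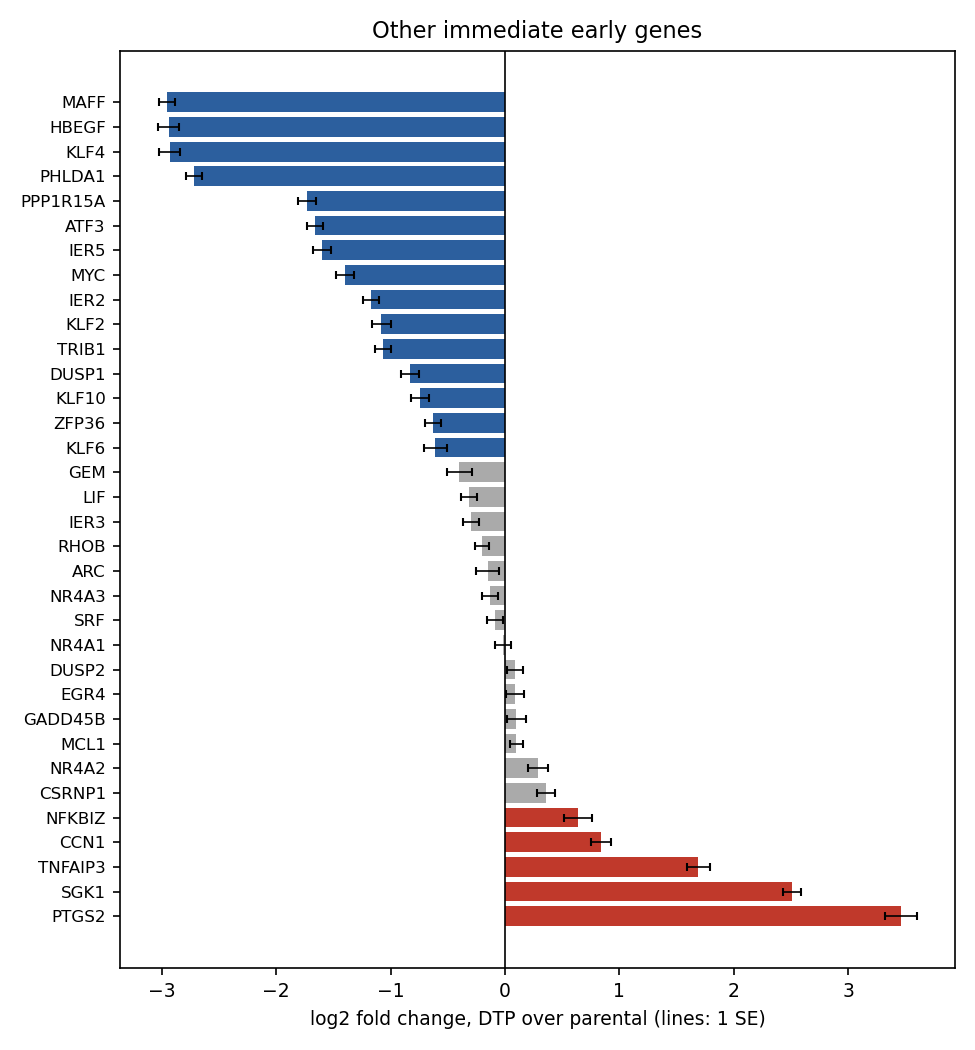
Log2 fold change, DTP over parental (horizontal axis), for 34 other immediate early genes, with lines of 1 SE from 3 arrays per group. Blue bars are called lower, red bars called higher and grey bars not called, and they run from -2.95 for MAFF to 3.46 for PTGS2.

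Among 10 measured bZIP proteins that can pair with FOS or JUN proteins or compete with them, MAFF and ATF3 were called lower, none was called higher and 8 were not called (median log2 fold change -0.06). ATF3, a stress-induced factor that pairs with JUN proteins, had 9.47, 9.50 and 9.36 in DTPs, against 11.04, 11.13 and 11.14 in parental cells, and was 3.16-fold lower (limma adjusted p = 1.1e-09). Of its 3 probe sets 2 were called lower, and with their mean ATF3 had a log2 fold change of -1.0, against -1.66 for the probe set used. Every DTP array was below every parental array for ATF3 and MAFF. BATF, a bZIP partner of JUN proteins that was named after its value had been seen, had a log2 fold change of 0.51 (limma adjusted p = 3.9e-05) under the fold minimum. Under either centring 1 of the 10 was called higher.

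The EGR list held 4 further genes. NAB1, a corepressor that binds EGR proteins, had 8.44, 8.55 and 8.58 in DTPs, against 8.07, 7.87 and 7.86 in parental cells, and was called higher with a log2 fold change of 0.59 ± 0.08 (SE, limma adjusted p = 4.7e-05), just past the fold minimum. It was not called in 6 alternatives, with log2 fold changes of 0.56 without DTP replicate 3, 0.57 without DTP replicate 2, 0.55 without parental replicate 2 or 3, 0.58 with cyclic loess and 0.39 with the mean of its 4 probe sets. EGR4, NAB2 and WT1, which binds sites like those of EGR1, were not called.

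Of 11 genes of the SRF and CREB axis, MRTFA was called higher and the other 10 were not called (median log2 fold change -0.19). MRTFA, an actin-regulated coactivator of SRF, was 2.43-fold higher, but only 1 of its 5 probe sets was called, and averaged over all 5 the log2 fold change was 0.57 and was not called. SRF had a log2 fold change of -0.09 and its partners ELK1, ELK3 and ELK4 had -0.19, -0.43 and -0.31. Of the 7 probe sets of ELK4, 1 was called lower. CRTC3, also among the 10 not called, had a log2 fold change of -0.55, but 1 of its 2 probe sets was called higher.

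Of 11 kinases of the RAF, MEK, ERK and RSK groups, RPS6KA2 was called lower (1.54-fold, limma adjusted p = 1.7e-05) and 10 were not called. RPS6KA2, an RSK kinase downstream of ERK, was not called without parental replicate 3 (log2 fold change -0.57), under either centring or with the mean of its probe sets, and 1 of the 11 was called higher under either centring. The list of JNK and p38 kinases, which includes kinases upstream of them, held 11 genes, 8 of them measured. MAPK14, which encodes p38α, was not among the 8. Of these 8, MAPK13, which encodes p38δ, was 2.05-fold lower, and MAPK8, which encodes the JUN kinase JNK1, was 1.56-fold lower. MAPK8 was not called under either centring (-0.51 and -0.49) or with the mean of its probe sets (-0.42). MAPK13 had both of its probe sets called, and the remaining 6 kinases were not called.

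Genes known as targets of AP-1 were called in both directions, 4 lower and 4 higher of 21 measured (median log2 fold change -0.18), and 3 lower and 6 higher under either centring. PLAU, the urokinase protease, was 3.59-fold lower and the angiogenic factor VEGFA 3.53-fold lower, while PTGS2 and the cytokine IL6 were higher. IL6 had 10.23, 9.38 and 9.47 in DTPs, against 8.24, 8.25 and 8.36 in parental cells, and was 2.66-fold higher (limma adjusted p = 1.9e-05). Of 12 targets of EGR1 5 were lower and 3 higher (median -0.24). Under either centring 3 of these 12 were lower and 4 higher. Besides VEGFA and ATF3 among the lower, the growth factor PDGFB was 3.79-fold higher and the adhesion molecule ICAM1 3.65-fold higher. PDGFB had 2 of its 4 probe sets called higher, and with the mean of all 4 its log2 fold change was 0.97, against 1.92 for the probe set used. PTGS2, VEGFA, ATF3, MAFF and others stand in more than 1 list, so the lists are not separate evidence. Of 8 genes of AU-rich mRNA decay, which removes FOS and other short-lived mRNAs, ZFP36 was called lower (1.54-fold) and 7 were not called, and ZFP36 was not called without DTP replicate 3 (-0.57) or under either centring (-0.49 and -0.48). In each of these 3 settings 1 of the 8 was called higher, as it was with cyclic loess.

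The genes outside this group whose 6 array values, each relative to its own parental mean, were closest to those of EGR1 were IL1RL1, DUSP6 and ABCG1, with root mean square differences of 0.138, 0.278 and 0.417 log2 units. For FOS they were C1orf226 (0.052), TERT (0.074) and XBP1 (0.079), and for JUN they were FOXQ1 (0.034), LPIN2 (0.035) and METTL4 (0.036). With 2 groups of 3 arrays this likeness reflects the size of the group difference above all.

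The arrays of each group were alike, with Pearson's r over all probe sets of 0.9968 to 0.9979 within groups and 0.9701 to 0.9754 across them, coefficients that only describe the arrays. All 7 epithelial markers (EPCAM and simple keratins among them) lay above the median of all probe sets, with array means of 13.19 to 13.26 in DTPs and 12.95 to 12.97 in parental cells, and KRT7 was called higher. Of 9 fibroblast markers 5 lay below that median in both groups and COL1A1 was called higher (6.36-fold), with array means of 7.17 to 7.28 in DTPs and 6.92 to 6.99 in parental cells, of 8 blood markers none was called, and of 4 endothelial markers PECAM1 was called lower. The 3′ minus 5′ log2 difference of the β-actin controls, a sign of RNA integrity, was 0.06 ± 0.03 in DTPs and 0.17 ± 0.03 in parental cells (SD, n = 3 each, exact permutation test, two-sided p = 0.10, the smallest that 3 against 3 allows). For GAPDH the difference was -0.18 in DTPs and -0.15 in parental cells. The part of these differences in the values of the members was not tested.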

How the data were processed

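RNA of 6 samples was hybridised to Affymetrix Human Genome U133 Plus 2.0 arrays, 1 per sample. The deposited log2 values are probe set summaries that the authors made by RMA with the affy package and quantile normalization (versions not given in the sources used here), and they come with no detection call. The labels do not say whether the samples came from separately grown cultures. The p-values thus rest on a spread between samples that may be technical, and 3 arrays per group limit their precision. The table held 54675 probe sets, 62 of them controls. The platform annotation gave 1 gene for 41091, several for 1801 and none for 11721.

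Each gene was represented by its probe set brightest over all 6 arrays without the suffix _x_at (an _x_at one for the 419 genes with no other). For DTPs over parental cells, limma 3.58.1 (lmFit, then eBayes; R 4.3.3) gave two-sided p-values without covariates, adjusted by Benjamini-Hochberg across all genes or across all probe sets. A call required a fold over 1.5 and an adjusted p under 0.05, as in the study's methods. The procedure was tested on simulated data of 19775 genes for this comparison, where 44.0% of genes changed 1.5-fold, 99.6% of those changed 2-fold and 100% of those changed 4-fold were called. A true 1.5-fold change lies at the fold minimum, which itself limits the share called. Far fewer genes were changed in the simulation than passed the adjusted p in the data. The members and lists were chosen with earlier results of these data known. The rule for naming genes took all members, up to 4 called genes with the largest change per list (or the 2 with the smallest p), and the 3 genes closest to EGR1, FOS and JUN. ELK1, ELK3, ELK4, CRTC3, MAPK14, EGR4, NAB2, WT1 and EPCAM were named outside this rule, as were the genes said above to be picked out afterwards. Promoter windows came from RefSeq. The alternatives were a replicate block, each array left out, centring on 51 ribosomal protein genes or 18 spike-in probe sets, cyclic loess, a filter on dim probe sets, other probe set rules, an intensity trend with robust variances, the methods' t-test (named there for other experiments) and other fold minimums.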

Additional observations from a re-analysis of the deposited data

How the results depend on the processing

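The 4 members called lower (EGR1, FOS, FOSL1 and JUN) numbered 4 in all alternatives that kept a fold minimum, and 6 without one, when EGR3 and FOSB passed the adjusted p. The number of members called higher was 0 to 1 with single arrays left out, 0 with a fold over 2, and 1 otherwise. For probe sets of members called higher it was 0 to 1 with single arrays left out, 0 with a fold over 2 and 2 with no fold minimum. Probe sets of members called lower numbered 8 in the values reported. They numbered 7 without DTP replicate 3, under either centring and with dim probe sets left out. With a fold over 2 there were 6, and with no fold minimum 11. With the dim probe sets left out EGR3 had no value. Over all genes 795 were called lower when arrays were centred on spike-ins, with 74.2% of calls higher, and 821 when centred on ribosomal protein genes, with 73.1% higher, against 1212 and 56.9% in the values reported. These centrings moved every gene by 0.15 and 0.14 on the log2 scale. Without a fold minimum 4754 genes were lower and 4043 higher, and with a fold over 2 there were 431 and 679. The methods' t-test gave 7 of the 9 members a p under its threshold and 5 after Benjamini-Hochberg adjustment. Of all 19775 genes the same test gave 9024 and 6956, so these member counts say little about the members.

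Arrays with the same replicate number did not deviate together (correlations of -0.12, 0.02 and -0.06 over all probe sets), and none of the 6 arrays correlated best with its own number, so the numbers were not taken as pairs. With the replicate block 1212 genes were called lower and 1597 higher, and EGR1 had a log2 fold change of -4.71. The block changed no call of a member.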
